A study of Mus musculus with 9 samples.

Results

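SB431542 is a small molecule that blocks the type I receptors of TGF-β and activin, and the data compare bladders of H2O2-injured mice that received it with bladders of H2O2-injured mice that received saline. The comparison takes 6 of the 9 libraries of the series, H2O2/SB431542 1 to 3 against H2O2/saline 1 to 3, and covers all 19314 genes that were expressed enough to be tested. All mice were female C57BL/6N wild-type mice aged 8 weeks. In both groups 1.5% H2O2 was infused into the bladder on day 0, an oxidant injury used as a model of interstitial cystitis. The H2O2/SB431542 mice then received 1.2 mM SB431542 into the peritoneum on days 0 and 4, and the H2O2/saline mice received saline on the same days. The 3 control libraries stand last beside some values. Their mice are labelled untreated, whereas the methods of the study describe sham mice, and which of these holds for the 3 libraries was not settled. All bladders were taken on day 10. The samples of a group are called biological replicates, but it is not said that each came from its own mouse, so p-values measure the spread between these samples.

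TGF-β is released bound to carrier proteins of the matrix and signals once it is set free. The ligand binds a type II receptor, which activates the type I receptor ALK5, the product of Tgfbr1, and ALK5 in turn phosphorylates Smad2 and Smad3. These enter the nucleus with Smad4 and change transcription, among others of collagens and of the feedback inhibitor Smad7. SB431542 occupies the ATP site of ALK5 and of the activin and nodal receptors ALK4 and ALK7 (Acvr1b and Acvr1c), and spares the receptors of bone morphogenetic proteins (BMP). In bladder wall this pathway is known for its part in fibrosis, in the growth arrest of epithelium and in the control of immune cells.

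The libraries held 37756785 to 41055328 counts in total, and 8 markers of urothelium and detrusor (Upk1a, Upk1b, Upk2, Upk3a, Krt5, Myh11, Actg2 and Des) all stood at 663 CPM or more in each of the 6. CPM is a count scaled to one common library total, here with TMM factors. Fewer cells of a type and less RNA per cell cannot be told apart in such bulk RNA. H2O2/saline 1 stood apart from H2O2/saline 2 and 3. The RNA CT010467.1 took 4.28% of its counts and Lars2 2.10%, against 0.330 to 0.730% and 0.0997 to 0.233% in the other 5. The replicate 1 libraries of every group also shared fat cell genes. Adipoq, the fat cell hormone adiponectin, had 3.19, 0 and 0.137 CPM in H2O2/SB431542, against 9.80, 0 and 0 CPM in H2O2/saline, and 14.3, 0.634 and 0 CPM in control 1 to 3. Haemoglobin genes went the same way, Hba-a1 having 730.4, 250.5 and 202 CPM in H2O2/SB431542, against 709, 298 and 262 CPM in H2O2/saline. The part of fat and blood in the differences between the groups was not tested, and the main counts are given with and without H2O2/saline 1.

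No gene passed the test between H2O2/SB431542 and H2O2/saline when all libraries were used. In edgeR's quasi-likelihood test, with p adjusted by Benjamini-Hochberg over the 19314 genes, the lowest adjusted p was 0.528. At an unadjusted p under 0.05 there were 1706 genes, 8.83% of those tested, of which 961 were lower (4.98%) and 745 higher (3.86%) with SB431542. The higher genes were 43.7% of the 1706, against 81.9% when libraries were scaled by their totals alone. With the replicate number as a block 0 genes were called and 2734 had an unadjusted p under 0.05. For 1424 genes (7.37%) all 3 H2O2/SB431542 values lay below all 3 H2O2/saline values, and for 1638 genes (8.48%) they lay above. When libraries were scaled by their totals alone these counts were 544 and 2816. Which genes had groups that did not overlap, here and below, thus depended on the scaling. DESeq2 called 39 genes on the same counts (0.202%), 27 lower (0.14%) and 12 higher (0.0621%), and limma-voom called 0, with 1809 genes at an unadjusted p under 0.05. Whether genes passed depended on H2O2/saline 1: without it edgeR called 197 genes (1.02%), 113 lower (0.585%) and 84 higher (0.435%), and 3375 genes (17.5%) had an unadjusted p under 0.05, 1555 lower (8.05%) and 1820 higher (9.42%). Without control 2 it called 1 gene, and leaving out any other single library gave 0 calls.

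**Figure D1:**
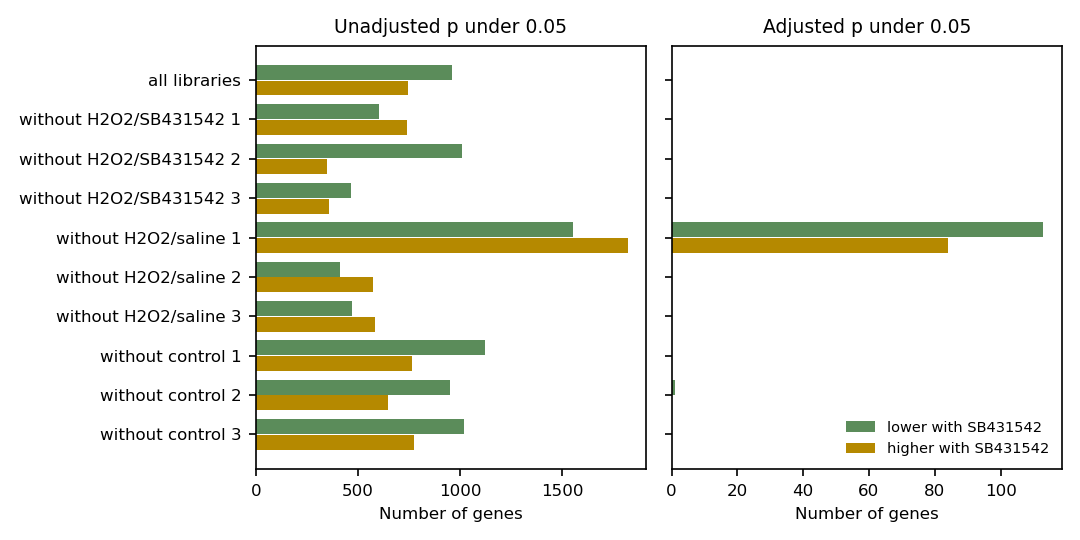
Number of genes lower and higher in H2O2/SB431542 than in H2O2/saline with all libraries and after leaving out each library, at an unadjusted p under 0.05 (left) and at an adjusted p under 0.05 (right), edgeR. Without H2O2/saline 1 there are 3375 genes at an unadjusted p under 0.05 and 197 called, and without H2O2/SB431542 3 there are 829 and 0.

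Among genes whose groups did not overlap, the 15 with the lowest p in the lower direction were led by S100a10, the partner of annexin A2 at the cell membrane. S100a10 had 134, 171 and 142 CPM in H2O2/SB431542, against 234, 372 and 358 CPM in H2O2/saline, and 158, 209 and 210.3 CPM in the controls. Its highest H2O2/SB431542 library stood below its lowest H2O2/saline library, and the log2 fold change was −1.11 ± 0.22 (SE, unadjusted p = 0.000279). Plac8, a small cysteine-rich protein of leukocytes and epithelia, had 34.3, 50.2 and 50.1 CPM in H2O2/SB431542, against 68.1, 126 and 105 CPM in H2O2/saline, a log2 fold change of −1.15 ± 0.24 (SE, unadjusted p = 0.000477). In both genes H2O2/saline 1 was the lowest of its group.

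Ccl9 and Ccl6, mouse CC chemokines that attract myeloid cells, were both among the 15. Ccl9 had 9.88, 14.1 and 9.40 CPM in H2O2/SB431542, against 19.0, 24.8 and 27.6 CPM in H2O2/saline, and 6.80, 5.73 and 5.88 CPM in the controls. Ccl6 had 18.2, 32.9 and 26.1 CPM in H2O2/SB431542, against 37.6, 71.0 and 60.7 CPM in H2O2/saline, and 15.8, 16.8 and 20.5 CPM in the controls. For Ccl9 every H2O2/SB431542 library lay between the controls and the H2O2/saline libraries, while for Ccl6 H2O2/SB431542 1 lay among the controls, with log2 fold changes of −1.10 ± 0.24 (SE, unadjusted p = 0.000572) for Ccl9 and −1.14 ± 0.27 (SE, unadjusted p = 0.00134) for Ccl6. Ifitm1, an interferon-induced membrane protein, had 24.0, 34.7 and 23.6 CPM in H2O2/SB431542, against 44.5, 63.3 and 61.9 CPM in H2O2/saline. Gdf10, a ligand of the TGF-β superfamily also known as BMP3B, had 4.78, 5.40 and 6.42 CPM in H2O2/SB431542, against 8.32, 16.1 and 16.6 CPM in H2O2/saline, and its log2 fold change was −1.31 ± 0.31 (SE, unadjusted p = 0.00117). By the rule that chose the 15, no H2O2/SB431542 library of Gdf10 reached the lowest H2O2/saline library.

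Rps7, a protein of the small ribosomal subunit whose pseudogenes may share reads with it, had 565, 666 and 516 CPM in H2O2/SB431542, against 1018, 1134 and 1235 CPM in H2O2/saline. Nfu1, which delivers iron-sulfur clusters in mitochondria, had 19.5, 19.5 and 18.8 CPM in H2O2/SB431542, against 27.8, 39.6 and 34.5 CPM in H2O2/saline, and Chchd1, a protein of the mitochondrial ribosome, had 22.3, 22.8 and 24.3 CPM in H2O2/SB431542, against 34.7, 48.3 and 36.6 CPM in H2O2/saline. For Nfu1 and Chchd1 the spread within H2O2/SB431542 was small beside the gap to H2O2/saline. Pdlim1, a PDZ and LIM domain protein of actin fibres, had 57.6, 81.8 and 73.7 CPM in H2O2/SB431542, against 87.2, 216 and 206 CPM in H2O2/saline, the H2O2/saline 1 value lying close to the H2O2/SB431542 libraries. Prdx4, a peroxiredoxin of the endoplasmic reticulum, had 32.5, 40.3 and 37.2 CPM in H2O2/SB431542, against 48.7, 92.2 and 84.1 CPM in H2O2/saline, and Fxyd5, a subunit that regulates the sodium pump, had 29.1, 37.99 and 26.2 CPM in H2O2/SB431542, against 43.4, 86.0 and 75.7 CPM in H2O2/saline. Tm4sf5, a membrane protein of the tetraspanin-like L6 family, had 2.54, 3.80 and 3.09 CPM in H2O2/SB431542, against 4.97, 14.3 and 11.4 CPM in H2O2/saline, and AC161763.1, a gene with no role given here, was also among the 15. The log2 fold changes of the 15 ran from −1.70 for Tm4sf5 to −0.79 for Chchd1.

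**Figure D2:**
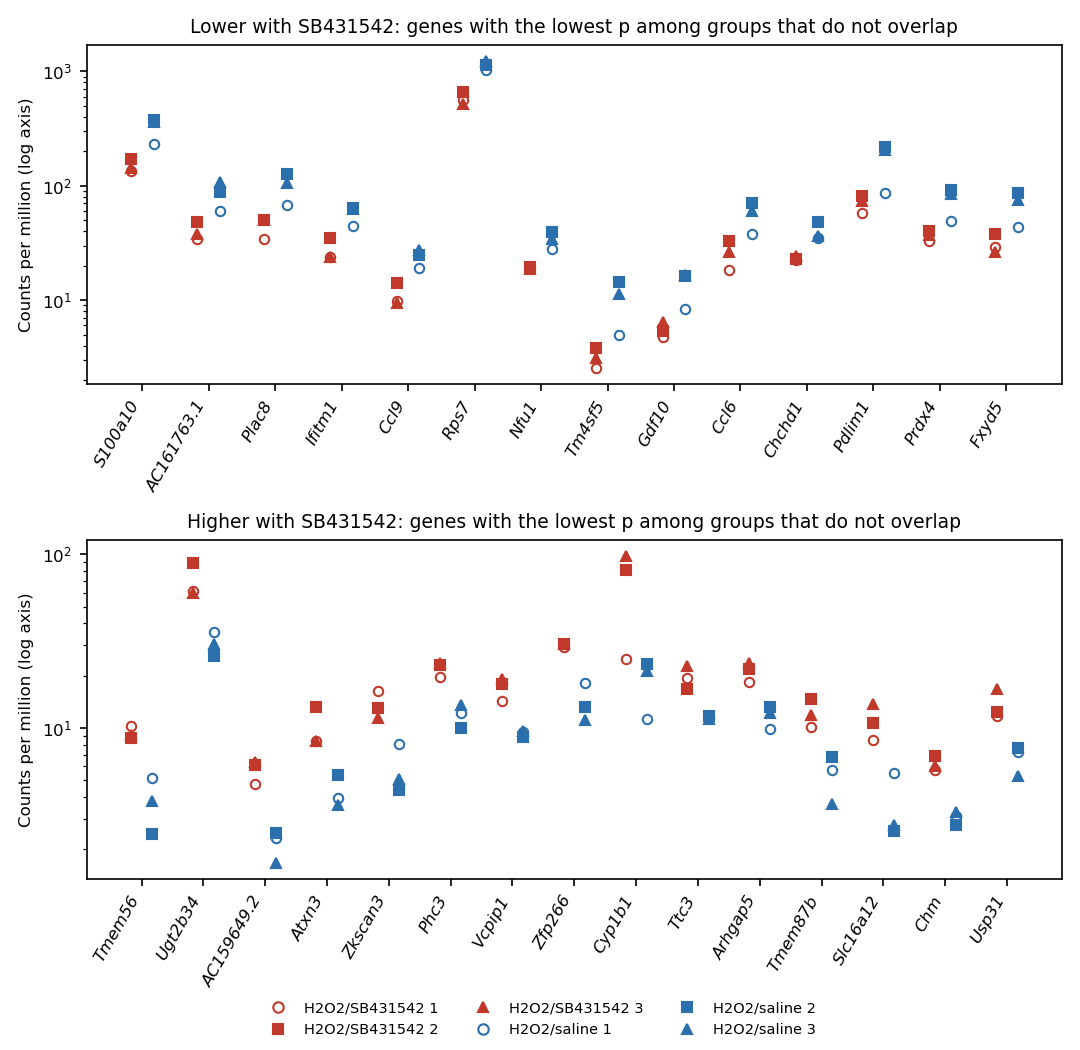
CPM (log axis) in each library for the genes of lowest p described in the text that were lower (top) and higher (bottom) with SB431542 among genes whose groups did not overlap. Each mark is 1 library, open circles being replicate 1. S100a10 shows 134 to 171 CPM in H2O2/SB431542 against 234 to 372 CPM in H2O2/saline.

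In the higher direction the same rule also gave 15 genes. Cyp1b1, a cytochrome P450 that oxidises steroids, retinoids and arenes, had the largest difference of the 15. Cyp1b1 had 25.02, 80.9 and 98.1 CPM in H2O2/SB431542, against 11.2, 23.3 and 21.4 CPM in H2O2/saline, and 16.8, 35.2 and 23.9 CPM in the controls. H2O2/SB431542 2 and 3 stood above every control and H2O2/saline library, while H2O2/SB431542 1 lay just above H2O2/saline 2. The log2 fold change was 1.87 ± 0.46 (SE, unadjusted p = 0.00159). Ugt2b34, an enzyme that attaches glucuronic acid to small molecules, had 61.2, 89.5 and 59.6 CPM in H2O2/SB431542, against 35.8, 26.1 and 30.3 CPM in H2O2/saline, with 54.4, 47.5 and 94.2 CPM in the controls and a log2 fold change of 1.19 ± 0.27 (SE, unadjusted p = 0.000961). Slc16a12, a creatine transporter, had 8.52, 10.7 and 13.6 CPM in H2O2/SB431542, against 5.52, 2.56 and 2.75 CPM in H2O2/saline, and 10.7, 12.4 and 26.4 CPM in the controls. For Ugt2b34 and Slc16a12 every H2O2/saline library lay below every control.

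The deubiquitinating enzymes Atxn3, Vcpip1 and Usp31 were among the 15. Their transcripts have 5363, 9749 and 10198 nt, against a median of 2792 nt over all tested genes. Their log2 fold changes were 1.21, 0.88 and 1.01, and 1.02, 0.54 and 0.65 with a trend on transcript length taken out of each library. Atxn3 had 8.43, 13.1 and 8.37 CPM in H2O2/SB431542, against 3.93, 5.38 and 3.62 CPM in H2O2/saline, Vcpip1 had 14.2, 18.0 and 19.2 CPM in H2O2/SB431542, against 9.51, 8.90 and 9.56 CPM in H2O2/saline, and Usp31 had 11.6, 12.3 and 16.7 CPM in H2O2/SB431542, against 7.31, 7.68 and 5.25 CPM in H2O2/saline. That the groups of these genes did not overlap follows from the rule that chose the 15. Ttc3, a ubiquitin ligase, had 19.5, 16.8 and 22.8 CPM in H2O2/SB431542, against 11.5, 11.6 and 11.2 CPM in H2O2/saline. Phc3, a subunit of a Polycomb repressive complex, had 19.6, 23.0 and 23.7 CPM in H2O2/SB431542, against 12.3, 10.01 and 13.5 CPM in H2O2/saline, and the zinc finger genes Zkscan3 and Zfp266 had 16.3, 13.0 and 11.4 CPM in H2O2/SB431542, against 8.06, 4.40 and 5.08 CPM in H2O2/saline and 29.2, 30.6 and 30.3 CPM in H2O2/SB431542, against 18.1, 13.3 and 11.1 CPM in H2O2/saline. Arhgap5, a GTPase-activating protein, had 18.3, 21.7 and 23.6 CPM in H2O2/SB431542, against 9.83, 13.2 and 12.2 CPM in H2O2/saline, and Chm, an escort protein of Rab GTPases, had 5.72, 6.85 and 6.01 CPM in H2O2/SB431542, against 3.12, 2.77 and 3.27 CPM in H2O2/saline. Tmem56, Tmem87b and AC159649.2 complete the list, and the log2 fold changes of the 15 ran from 0.78 for Ttc3 to 1.87 for Cyp1b1.

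The promoters of these 30 genes were searched for letters that Smad proteins and AP-1, a partner of Smads, are known to bind. RefSeq promoters, 250 bases before to 50 bases after the start, were at hand for 12 of the 15 lower and 11 of the 15 higher genes. The Smad element CAGACA, on either strand, stood in 2 of 12 lower and 2 of 11 higher genes, against 21% of all 32851 promoters. The AP-1 element TGANTCA stood in 1 of 12 and 1 of 11, against 7.81%, and the Smad palindrome GTCTAGAC in 0 of each, against 0.213%. None of these motifs overlaps another. Shown are the first 2 genes in each direction with such a match, so that the position of the letters can be seen. The sequences run 5′ to 3′ on the strand of the gene in GRCm38.p6, an older build than the GRCm39 of the counts, with the matched letters in capitals. Ccl9 lies at chr11:83578587-83578886 on the minus strand, Chchd1 at chr14:20702777-20703076 on the plus strand, Phc3 at chr3:30969366-30969665 on the minus strand and Cyp1b1 at chr17:79715012-79715311 on the minus strand.
Ccl9: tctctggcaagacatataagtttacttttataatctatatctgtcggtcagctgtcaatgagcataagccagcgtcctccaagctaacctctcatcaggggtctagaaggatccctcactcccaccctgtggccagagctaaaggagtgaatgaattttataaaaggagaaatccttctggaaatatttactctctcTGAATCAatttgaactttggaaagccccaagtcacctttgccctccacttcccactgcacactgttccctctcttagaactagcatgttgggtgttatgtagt
Chchd1: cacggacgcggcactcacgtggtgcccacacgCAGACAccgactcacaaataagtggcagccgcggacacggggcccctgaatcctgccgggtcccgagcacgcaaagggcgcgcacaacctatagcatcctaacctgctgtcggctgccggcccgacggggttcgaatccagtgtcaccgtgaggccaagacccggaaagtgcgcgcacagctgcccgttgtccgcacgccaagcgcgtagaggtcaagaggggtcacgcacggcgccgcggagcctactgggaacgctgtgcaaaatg
Phc3: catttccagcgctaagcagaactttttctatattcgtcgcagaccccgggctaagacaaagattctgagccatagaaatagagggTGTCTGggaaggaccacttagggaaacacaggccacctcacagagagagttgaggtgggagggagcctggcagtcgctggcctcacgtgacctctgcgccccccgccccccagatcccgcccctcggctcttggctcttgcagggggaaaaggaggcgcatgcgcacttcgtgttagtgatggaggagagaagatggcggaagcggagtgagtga
Cyp1b1: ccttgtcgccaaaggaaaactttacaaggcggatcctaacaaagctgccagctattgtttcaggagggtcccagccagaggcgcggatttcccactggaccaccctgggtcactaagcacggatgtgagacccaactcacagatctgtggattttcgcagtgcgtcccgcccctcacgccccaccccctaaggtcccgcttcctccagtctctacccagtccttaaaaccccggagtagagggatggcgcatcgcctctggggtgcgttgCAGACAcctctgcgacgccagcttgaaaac
Ccl9 holds the AP-1 element, Chchd1 and Cyp1b1 hold the Smad element in the sense of the gene, and Phc3 holds its reverse complement. A match is a description of the letters and shows no binding.

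The receptors that SB431542 blocks differed by less than the spread between libraries. Tgfbr1 had 9.76, 20.0 and 13.6 CPM in H2O2/SB431542, against 8.12, 13.3 and 16.3 CPM in H2O2/saline, and Acvr1b had 88.0, 73.0 and 73.6 CPM in H2O2/SB431542, against 82.1, 57.4 and 61.2 CPM in H2O2/saline. Acvr1c stayed at or below 0.137 CPM in the 6 libraries and was not tested. Of 18 tested receptors and Smads, 0 had an unadjusted p under 0.05 and 0 had groups apart, against 8.83% and, in the lower and higher directions, 7.37% and 8.48% of all genes. Their median log2 fold change was 0.12, and 0.02 over all tested genes. Tgfbr2, the type II receptor of TGF-β, had 154, 155 and 171 CPM in H2O2/SB431542, against 127, 194 and 166 CPM in H2O2/saline, and Smad3 had 136, 79.2 and 91.4 CPM in H2O2/SB431542, against 122, 77.5 and 74.5 CPM in H2O2/saline. The groups overlapped in both.

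Of 18 tested ligands and carriers 10 were higher and 8 lower, and 1 had groups apart in the higher direction, against 8.48% of all genes. That gene was Tgfb2. Tgfb2 had 11.4, 9.80 and 15.3 CPM in H2O2/SB431542, against 7.23, 6.99 and 4.01 CPM in H2O2/saline, with 7.32, 24.9 and 10.9 CPM in the controls, a log2 fold change of 1.004 ± 0.41 (SE, unadjusted p = 0.0322). Tgfb1 had 119, 77.6 and 77.3 CPM in H2O2/SB431542, against 102, 148 and 122 CPM in H2O2/saline, and H2O2/SB431542 1 lay above H2O2/saline 1 while H2O2/SB431542 2 and 3 lay below every H2O2/saline library (unadjusted p = 0.153, edgeR). Tgfb3 had 69.2, 41.2 and 34.8 CPM in H2O2/SB431542, against 30.6, 35.5 and 40.2 CPM in H2O2/saline, the highest value being that of H2O2/SB431542 1. The latent TGF-β binding protein Ltbp1 and the activin subunit Inhba had overlapping groups as well.

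Of 25 tested genes known to respond to TGF-β, 15 were lower and 10 higher with SB431542 and the median log2 fold change was −0.06 (0.09 when libraries were scaled by their totals), and 1 had an unadjusted p under 0.05 in the lower direction (4.98% of all genes). The count was 4 without H2O2/saline 1 (8.05% of all genes) and the median −0.19. The 1 gene, Tgfbi, a matrix protein named after its induction by TGF-β, had 83.6, 88.2 and 56.8 CPM in H2O2/SB431542, against 83.8, 155 and 138 CPM in H2O2/saline, with 57.8, 57.4 and 54.4 CPM in the controls and a log2 fold change of −0.72 ± 0.24 (SE, unadjusted p = 0.0114). H2O2/saline 2 and 3 stood above every other library of the 9, while H2O2/saline 1 lay among the H2O2/SB431542 libraries. Acta2, the smooth muscle actin that also marks myofibroblasts, had 6573, 6507 and 5951 CPM in H2O2/SB431542, against 7322, 9159 and 8423 CPM in H2O2/saline, groups that did not overlap (unadjusted p = 0.158, edgeR). Pmepa1, a feedback inhibitor of the pathway, had 137, 147 and 171 CPM in H2O2/SB431542, against 98.8, 292 and 249 CPM in H2O2/saline, and Smad7 had 11.6, 9.78 and 11.4 CPM in H2O2/SB431542, against 10.8, 12.8 and 12.8 CPM in H2O2/saline. Pmepa1 was highest in H2O2/saline 2 and 3 and lowest in H2O2/saline 1. Ccn2, the connective tissue growth factor, had 13.3, 66.1 and 98.8 CPM in H2O2/SB431542, against 6.59, 56.0 and 41.1 CPM in H2O2/saline, the replicate 1 library being the lowest of either group.

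The targets of BMP signalling, which SB431542 spares, included 1 gene apart in each direction among 7 tested, against 7.37% of all genes in the lower and 8.48% in the higher direction. Id1 had 74.6, 110.3 and 108 CPM in H2O2/SB431542, against 173, 121 and 118 CPM in H2O2/saline, with 208, 257 and 205 CPM in the controls and a log2 fold change of −0.49 ± 0.22 (SE, unadjusted p = 0.0428). Id4 had 43.1, 30.5 and 59.6 CPM in H2O2/SB431542, against 22.0, 18.3 and 18.7 CPM in H2O2/saline, with 41.04, 144 and 64.7 CPM in the controls and a log2 fold change of 1.18 ± 0.39 (SE, unadjusted p = 0.0108). Both encode inhibitors of bHLH transcription factors, and in the H2O2/SB431542 libraries Id1 stood further from the controls than in H2O2/saline whereas Id4 stood nearer to them.

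Collagens are the main product of fibrosis. Of 20 tested, 16 had a log2 fold change below 0 (48.3% of all genes did), with a median of −0.13 (0.01 when scaled by totals), and 0 had an unadjusted p under 0.05. Col1a1 had 2690, 1232 and 1620 CPM in H2O2/SB431542, against 2261, 1586 and 1458 CPM in H2O2/saline, and Col3a1 had 1164, 1300 and 1590 CPM in H2O2/SB431542, against 1079, 1882 and 1794 CPM in H2O2/saline. Replicate 1 was the highest library for Col1a1 and the lowest for Col3a1 in both groups. In each direction 1 collagen had groups apart, against 7.37% of all genes in the lower and 8.48% in the higher direction. Col6a2, a chain of collagen VI, was lower, with 599, 461 and 535 CPM in H2O2/SB431542, against 619.9, 723 and 722 CPM in H2O2/saline (unadjusted p = 0.192, edgeR). Col8a1 was higher, with 9.64, 9.10 and 11.4 CPM in H2O2/SB431542, against 4.57, 8.54 and 7.63 CPM in H2O2/saline (unadjusted p = 0.328, edgeR). Col7a1, the anchoring fibril collagen made by epithelium, had the largest difference. It had 2.46, 21.4 and 24.1 CPM in H2O2/SB431542, against 2.37, 81.0 and 65.6 CPM in H2O2/saline, so the level was about as low in the replicate 1 library of either group (unadjusted p = 0.103, edgeR). Among matrix proteins and proteases Mfap5, a microfibril protein, had 27.8, 19.7 and 15.02 CPM in H2O2/SB431542, against 36.0, 40.4 and 35.7 CPM in H2O2/saline, a log2 fold change of −0.84 ± 0.25 (SE, unadjusted p = 0.00527). Mmp9, the gelatinase B of neutrophils and macrophages, had 15.7, 18.6 and 10.5 CPM in H2O2/SB431542, against 27.0, 30.5 and 23.4 CPM in H2O2/saline, a log2 fold change of −0.85 ± 0.23 (SE, unadjusted p = 0.00297). The groups of Mfap5 and Mmp9 did not overlap. Timp1, an inhibitor of matrix proteases, had 8.57, 33.0 and 16.7 CPM in H2O2/SB431542, against 9.71, 79.9 and 71.4 CPM in H2O2/saline, the value of H2O2/saline 1 lying within the H2O2/SB431542 range.

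Over the lists, 9 of 12 basal and squamous keratin genes had a lower level, 3 at an unadjusted p under 0.05, and 12 of 17 cornified envelope genes, 4 of them at an unadjusted p under 0.05, against 4.98% of all genes. These counts were 5 and 8 without H2O2/saline 1, against 8.05% of all genes. Krt13, a keratin of stratified epithelium, had 1.93, 30.0 and 21.1 CPM in H2O2/SB431542, against 2.57, 359.8 and 288 CPM in H2O2/saline, and 0.635, 0.475 and 0.258 CPM in the controls. Krt6a, a keratin of injured epithelium whose near-identical copy Krt6b may share its reads, had 1.30, 70.2 and 23.6 CPM in H2O2/SB431542, against 1.16, 576 and 416 CPM in H2O2/saline, and 1.08, 0.291 and 0.464 CPM in the controls. H2O2/SB431542 2 and 3 thus lay between the controls and H2O2/saline 2 and 3, and both replicate 1 libraries lay nearest to the controls. The log2 fold changes were −3.62 ± 1.22 (SE, unadjusted p = 0.0119) for Krt13 and −3.39 ± 1.46 (SE, unadjusted p = 0.0390) for Krt6a. Tgm1, the transglutaminase that crosslinks the cornified envelope, had 4.69, 7.70 and 7.59 CPM in H2O2/SB431542, against 2.54, 37.6 and 23.6 CPM in H2O2/saline. Trp63, the transcription factor of basal cells in the same list as the keratins, went the other way with groups apart: it had 47.6, 60.9 and 49.5 CPM in H2O2/SB431542, against 36.1, 32.1 and 37.03 CPM in H2O2/saline.

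Of 16 tested genes of superficial urothelium 10 had a lower and 6 a higher level, with a median log2 fold change of −0.15. In each direction 1 had groups apart (Krt18 lower, Foxa1 higher), against 7.37% and 8.48% of all genes. At an unadjusted p under 0.05 there were 2 lower and 0 higher, against 4.98% and 3.86% of all genes. Without H2O2/saline 1 there were 4 lower and 5 higher, against 8.05% and 9.42%. The transcription factor Gata3 was among the 6. Gata3 had 171, 125 and 146 CPM in H2O2/SB431542, against 164, 45.5 and 55.8 CPM in H2O2/saline, and 168, 143 and 151 CPM in the controls. H2O2/saline 2 and 3 were the lowest of the 9 libraries. Of 15 genes of tight junctions and barrier 7 were higher and 8 lower. The 2 with groups apart, Cldn5 and Cldn23, were lower (7.37% of all genes). At an unadjusted p under 0.05 there were 2 higher, Cldn8 and Tjp1, and 0 lower, against 3.86% and 4.98% of all genes. Cldn8, a claudin of the same list with overlapping groups, had 19.8, 17.5 and 15.7 CPM in H2O2/SB431542, against 16.8, 5.90 and 5.05 CPM in H2O2/saline, and 32.3, 30.3 and 59.7 CPM in the controls. In Cldn8 too H2O2/saline 2 and 3 were the lowest, but every control lay above every H2O2/SB431542 library. Without H2O2/saline 1 Gata3 and Cldn8 were called higher (adjusted p = 0.0118 for Gata3 and 0.0308 for Cldn8, edgeR). The uroplakin Upk3a had 2759, 3357 and 2886 CPM in H2O2/SB431542, against 4119, 1600 and 1635 CPM in H2O2/saline, with 5397, 4192 and 4536 CPM in the controls. Its H2O2/SB431542 libraries lay above H2O2/saline 2 and 3 and below H2O2/saline 1 (unadjusted p = 0.393, edgeR). Foxa1, a partner of Gata3 in urothelial genes, had 163, 156 and 152 CPM in H2O2/SB431542, against 149, 93.5 and 109.5 CPM in H2O2/saline, groups apart. Krt20 and Krt8, keratins of umbrella cells, had log2 fold changes of −0.64 ± 0.27 (SE, unadjusted p = 0.0338) and −0.63 ± 0.27 (SE, unadjusted p = 0.0374).

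Of 18 tested macrophage and monocyte markers 15 were lower, 8 of them at an unadjusted p under 0.05 (4.98% of all genes) and 2 with groups apart (7.37% of all genes). The median log2 fold change was −0.57. Fcgr3, a receptor for the constant part of IgG, had 14.2, 15.3 and 11.8 CPM in H2O2/SB431542, against 17.4, 41.2 and 32.1 CPM in H2O2/saline, with 9.04, 12.8 and 11.3 CPM in the controls and a log2 fold change of −1.14 ± 0.29 (SE, unadjusted p = 0.00211). Lyz2, the lysozyme of myeloid cells, had 73.4, 104 and 89.2 CPM in H2O2/SB431542, against 105, 133 and 163 CPM in H2O2/saline, and C1qa, a chain of complement C1q, had 83.9, 167 and 116 CPM in H2O2/SB431542, against 127, 231 and 199.99 CPM in H2O2/saline. The groups of Lyz2 did not overlap, and those of C1qa did. Csf1r, the receptor that macrophages need to survive, had 75.2, 95.7 and 90.8 CPM in H2O2/SB431542, against 85.2, 148 and 129.7 CPM in H2O2/saline. In each of these 4 genes H2O2/saline 1 was the lowest of its group. The summed level of the 18 markers was 500 to 876 CPM in H2O2/SB431542, 691 to 1209 CPM in H2O2/saline and 418 to 504 CPM in the controls.

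All 7 MHC class II genes had a log2 fold change below 0 (48.3% of all genes did), with a median of −0.40, and 2 had an unadjusted p under 0.05 (4.98% of all genes were lower at it). With a trend on transcript length taken out of each library, the median was −0.28 and 1 had an unadjusted p under 0.05 (3.85% of all genes were lower at it). H2-Aa had 134, 141 and 86.7 CPM in H2O2/SB431542, against 174, 224 and 199 CPM in H2O2/saline, a log2 fold change of −0.72 ± 0.21 (SE, unadjusted p = 0.00507), with groups apart. Of 20 chemokines 17 were lower, 4 of them at an unadjusted p under 0.05 (4.98% of all genes), and Ccl6 and Ccl9 had groups apart, 2 of 20 against 7.37% of all genes. Cxcl12, which holds leukocytes and stem cells in tissue, had 37.7, 50.2 and 47.7 CPM in H2O2/SB431542, against 48.2, 79.1 and 80.1 CPM in H2O2/saline. Of 16 tested cytokines 13 were lower, but 0 of these had an unadjusted p under 0.05, and the median was −0.50. There were 3 without H2O2/saline 1 (8.05% of all genes), and the median was −0.84. Il1b, the inflammatory interleukin 1β, had 0, 0.5001 and 0.320 CPM in H2O2/SB431542, against 0.0578, 1.60 and 2.33 CPM in H2O2/saline, and 0 CPM in each control, with H2O2/saline 1 within the H2O2/SB431542 range (unadjusted p = 0.136, edgeR). Csf3 was higher at very low levels, having 0.628, 1.13 and 0.549 CPM in H2O2/SB431542, against 0.347, 0 and 0 CPM in H2O2/saline.

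The defining neutrophil markers S100a8 and S100a9 reached at most 2.95 CPM in the 6 libraries, and 7 of 17 entries of the list were too low to test. Of the 10 tested 9 were lower, 3 of them at an unadjusted p under 0.05 (4.98% of all genes). The summed level of the 17 was 7.97, 16.5 and 12.1 CPM in H2O2/SB431542 1 to 3, against 9.94, 52.1 and 44.8 CPM in H2O2/saline 1 to 3. Ltf, which encodes lactoferrin and is also made by epithelia, had 0, 1.05 and 1.49 CPM in H2O2/SB431542, against 0.434, 21.3 and 15.4 CPM in H2O2/saline, and 0 CPM in each control. Mpo had 0.169, 0 and 0.572 CPM in H2O2/SB431542, against 1.01, 1.86 and 1.96 CPM in H2O2/saline, and Csf3r, the receptor of G-CSF, had 1.69, 2.78 and 1.67 CPM in H2O2/SB431542, against 1.27, 7.84 and 6.44 CPM in H2O2/saline. T and NK cell markers were lower in 13 of 16 tested cases, with a median of −0.43 (−0.10 without H2O2/saline 1). Among them 0 had an unadjusted p under 0.05, where 4.98% of all genes were lower. Lipid mediators included Alox5, the lipoxygenase of leukotriene synthesis, with 1.86, 2.45 and 1.92 CPM in H2O2/SB431542, against 2.80, 3.93 and 6.56 CPM in H2O2/saline, and Ptgs1, the constitutive cyclooxygenase, with 76.8, 65.6 and 77.5 CPM in H2O2/SB431542, against 88.2, 112 and 106 CPM in H2O2/saline. Both had groups apart, with log2 fold changes of −1.09 ± 0.39 (SE, unadjusted p = 0.0158) and −0.48 ± 0.17 (SE, unadjusted p = 0.0178). Interferon-induced genes split: Ifit2 had 2.37, 5.18 and 6.40 CPM in H2O2/SB431542, against 1.16, 1.35 and 1.24 CPM in H2O2/saline, higher with groups apart and a log2 fold change of 1.90 ± 0.47 (SE, unadjusted p = 0.00175), while Ifi27l2a had 65.4, 114 and 136 CPM in H2O2/SB431542, against 119, 216 and 206 CPM in H2O2/saline. The median of the 22 interferon genes was 0.08.

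**Figure D3:**
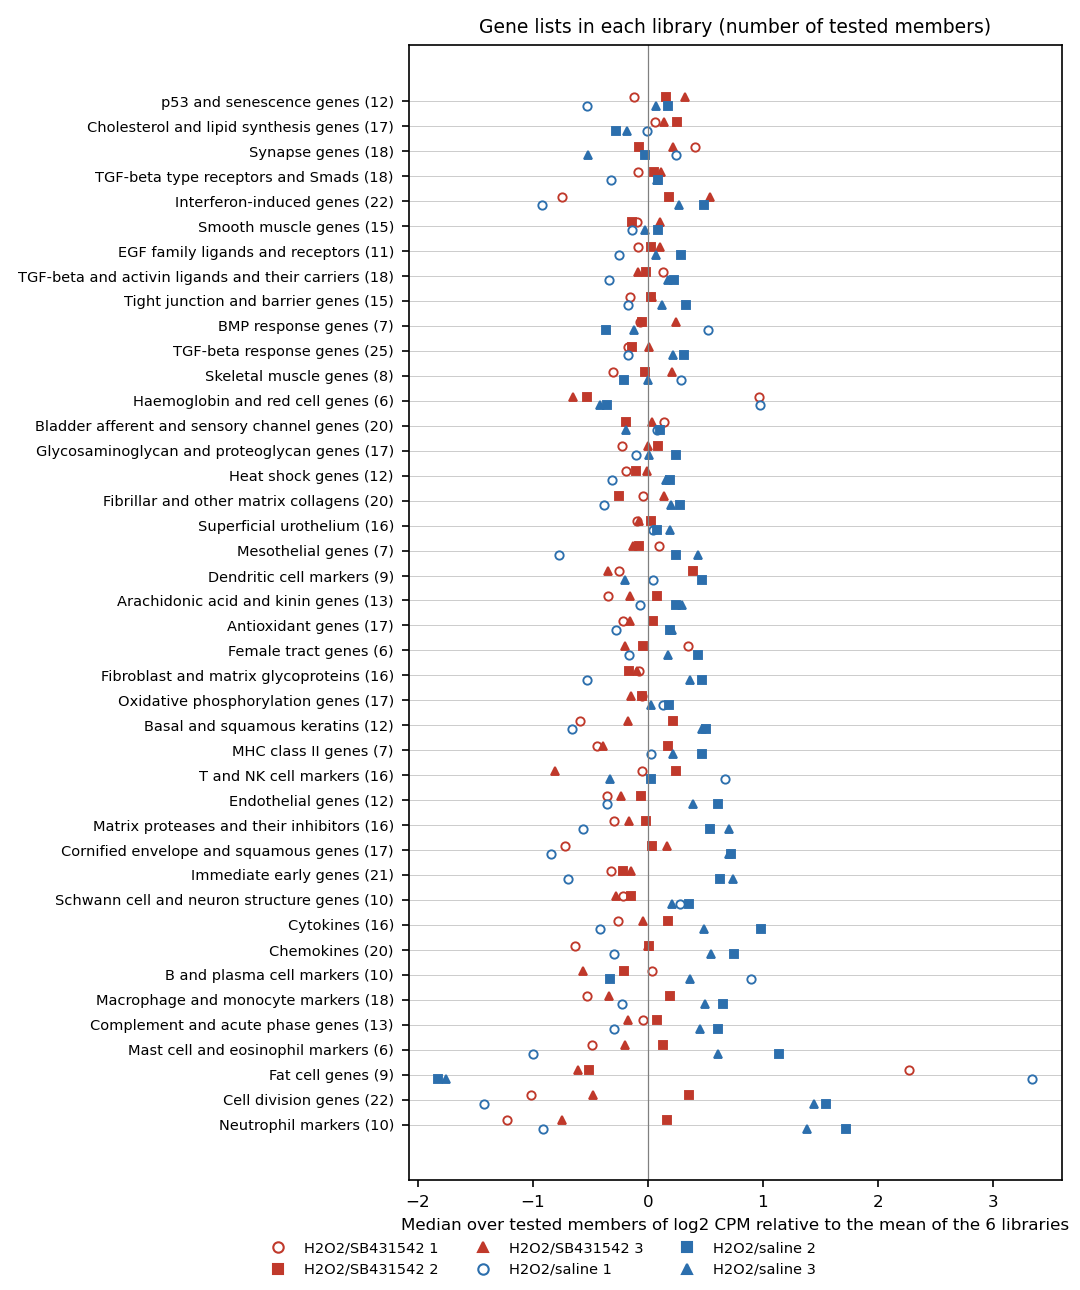
Median over the tested members of each gene list of log2 CPM relative to the mean of the 6 libraries, 1 mark per library, lists ordered by their median log2 fold change. Open circles are replicate 1: the cell division list stands at −1.43 in H2O2/saline 1, against 1.55 and 1.44 in H2O2/saline 2 and 3, and fat cell genes at 2.27 and 3.34 in both replicate 1 libraries.

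Cell division genes were lower in each of 22 cases, with a median log2 fold change of −1.19 and 6 at an unadjusted p under 0.05 (4.98% of all genes). Groups were apart in 0 of them, against 7.37% of all genes in the lower direction. Aurka, a kinase of the mitotic spindle, had 2.66, 3.601 and 3.16 CPM in H2O2/SB431542, against 2.86, 13.6 and 16.2 CPM in H2O2/saline, with 1.80, 3.12 and 1.91 CPM in the controls and a log2 fold change of −1.79 ± 0.52 (SE, unadjusted p = 0.00468). Cdk1, the kinase that starts mitosis, had 1.57, 5.73 and 3.09 CPM in H2O2/SB431542, against 1.10, 24.6 and 21.2 CPM in H2O2/saline, and the proliferation marker Mki67 had 2.004, 6.40 and 6.10 CPM in H2O2/SB431542, against 1.39, 14.4 and 17.3 CPM in H2O2/saline. H2O2/saline 2 and 3 were the 2 highest libraries for Aurka, Cdk1 and Mki67, and H2O2/saline 1 stood at or below H2O2/SB431542 1 for Cdk1 and Mki67. The summed level of the 22 genes was 124, 235 and 151 CPM in H2O2/SB431542 1 to 3, against 104, 468 and 411 CPM in H2O2/saline 1 to 3. Without H2O2/saline 1 the median was −1.66, 15 had an unadjusted p under 0.05 (8.05% of all genes were lower at it) and Aurka, Bub1b and Cdc20 were called (0.585% of all genes were called lower).

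Immediate early genes switch on within minutes of a stimulus. Of 21 tested, 16 were lower, 4 of them at an unadjusted p under 0.05 (4.98% of all genes). Without H2O2/saline 1 there were 9 (8.05% of all genes), 2 of them called (0.585% of all genes). Fos had 50.9, 28.1 and 21.7 CPM in H2O2/SB431542, against 23.4, 126 and 118 CPM in H2O2/saline, and Dusp1, a phosphatase that ends MAP kinase signals, had 26.1, 37.4 and 33.1 CPM in H2O2/SB431542, against 23.9, 105 and 81.5 CPM in H2O2/saline. Fosl1, an AP-1 subunit, had 1.06, 1.30 and 2.38 CPM in H2O2/SB431542, against 1.04, 10.8 and 6.94 CPM in H2O2/saline. For these 3 genes H2O2/saline 2 and 3 were the highest of the 6 libraries, and H2O2/saline 1 lay within or below the H2O2/SB431542 range. Fosl2, another AP-1 subunit, was higher with groups apart, at 279, 231 and 231 CPM in H2O2/SB431542, against 228, 152 and 168 CPM in H2O2/saline. Hbegf, a ligand of the EGF receptor, had 2.92, 5.55 and 7.71 CPM in H2O2/SB431542, against 3.96, 20.9 and 24.7 CPM in H2O2/saline.

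Bdnf, a growth factor of nerve cells, had 2.44, 0.975 and 3.77 CPM in H2O2/SB431542, against 0.462, 0.259 and 0.471 CPM in H2O2/saline, and 1.69, 6.34 and 1.03 CPM in the controls. Its groups did not overlap, with a log2 fold change of 2.58 ± 0.74 (SE, unadjusted p = 0.00444). The muscarinic receptors of the detrusor were higher with groups apart, Chrm3 having 6.64, 8.85 and 10.3 CPM in H2O2/SB431542, against 4.36, 4.29 and 3.79 CPM in H2O2/saline and Chrm2 having 8.26, 2.25 and 3.54 CPM in H2O2/SB431542, against 1.39, 0.828 and 1.91 CPM in H2O2/saline. In the controls Chrm3 had 4.39, 13.6 and 13.7 CPM. Trpa1, the irritant channel of nociceptors, had 0, 0 and 0 CPM in H2O2/SB431542, against 0, 1.501 and 1.51 CPM in H2O2/saline, and 0 CPM in each control, and was too low to test. Of the 20 tested genes of bladder afferents and sensory channels 4 were higher and 2 lower at an unadjusted p under 0.05, against 3.86% and 4.98% of all genes.

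Of 15 smooth muscle genes 8 had a higher level, with a median log2 fold change of 0.07. Myh11, the myosin of smooth muscle, had 2146, 2345 and 2750 CPM in H2O2/SB431542, against 1585, 1927 and 2037 CPM in H2O2/saline, higher with groups apart, whereas Acta2, given above, was lower with groups apart. Endothelial genes were lower in 9 of 12 cases, 2 at an unadjusted p under 0.05 against 4.98% of all genes (5 without H2O2/saline 1, against 8.05%), among them Tie1, a receptor of vessel lining, with 47.2, 57.0 and 48.3 CPM in H2O2/SB431542, against 53.6, 93.9 and 83.9 CPM in H2O2/saline.

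Of 17 nuclear genes of oxidative phosphorylation 14 were lower, 4 of them at an unadjusted p under 0.05 (4.98% of all genes), and 5 had groups apart in that direction (7.37% of all genes). With a trend on transcript length taken out of each library, 0 had an unadjusted p under 0.05. Uqcrfs1, the Rieske protein of complex III, had 64.0, 70.1 and 63.7 CPM in H2O2/SB431542, against 70.6, 109 and 106 CPM in H2O2/saline, a log2 fold change of −0.53 ± 0.19 (SE, unadjusted p = 0.0158). Of 81 ribosomal protein genes, taken by symbol, 75 were lower, 32 with groups apart (7.37% of all genes), and the median log2 fold change was −0.31. Of 17 cholesterol and lipid synthesis genes 15 were higher, 4 with groups apart (8.48% of all genes) and 4 at an unadjusted p under 0.05 (3.86% of all genes). The last count was 1 with the length trend taken out and 7 without H2O2/saline 1, against 2.13% and 9.42% of all genes. Lss, which makes lanosterol, had 62.7, 64.5 and 52.6 CPM in H2O2/SB431542, against 50.1, 40.0 and 38.1 CPM in H2O2/saline, and Insig1, the sterol sensor of this pathway, had 16.6, 18.6 and 15.8 CPM in H2O2/SB431542, against 14.6, 10.1 and 9.51 CPM in H2O2/saline. Scd2, a fatty acid desaturase, had 440.2, 470.2 and 432 CPM in H2O2/SB431542, against 370.3, 321 and 329 CPM in H2O2/saline, and Acaca, which starts fatty acid synthesis, had 33.8, 42.0 and 42.3 CPM in H2O2/SB431542, against 31.2, 28.2 and 30.6 CPM in H2O2/saline. For Lss, Scd2 and Insig1 the H2O2/SB431542 libraries lay in or near the control range, Lss having 62.9, 62.0 and 69.4 CPM in the controls.

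Of 17 antioxidant genes 12 were lower and 5 higher, 3 having groups apart in the lower direction (7.37% of all genes) and 1 in the higher (8.48%). At an unadjusted p under 0.05 there were 2 lower and 1 higher, against 4.98% and 3.86% of all genes. Without H2O2/saline 1 there were 5 lower and 1 higher, against 8.05% and 9.42%. Of 12 genes of the p53 response and senescence 7 were higher and 5 lower. Groups were apart for 2 in the higher and 1 in the lower direction, against 8.48% and 7.37% of all genes. Nfe2l2, Gpx3 and Ccng1 had the lowest p of both lists. Nfe2l2, which encodes NRF2, the regulator of antioxidant genes, had 56.6, 73.5 and 85.0 CPM in H2O2/SB431542, against 40.2, 43.3 and 51.5 CPM in H2O2/saline, with 61.3, 64.9 and 72.2 CPM in the controls and a log2 fold change of 0.67 ± 0.19 (SE, unadjusted p = 0.00457). Ccng1, a p53 target, had 50.9, 52.5 and 70.0 CPM in H2O2/SB431542, against 28.2, 27.5 and 39.4 CPM in H2O2/saline, with 29.1, 43.8 and 38.3 CPM in the controls and a log2 fold change of 0.87 ± 0.22 (SE, unadjusted p = 0.00229). Gpx3, the secreted glutathione peroxidase, was lower, at 141, 173 and 149.6 CPM in H2O2/SB431542, against 199, 255 and 248 CPM in H2O2/saline, a log2 fold change of −0.60 ± 0.19 (SE, unadjusted p = 0.00778). The H2O2/saline libraries of Gpx3 lay at 199 CPM or more and those of H2O2/SB431542 at 173 CPM or less. Hspe1, a chaperonin of mitochondria, had 62.5, 89.8 and 79.2 CPM in H2O2/SB431542, against 93.0, 138 and 135 CPM in H2O2/saline, also lower with groups apart.

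The direction of the differences varied with the length of the transcript. Tested genes were cut into 5 quintiles by length. In the shortest quintile (69 to 1431 nt) the median log2 fold change was −0.26, in the next 3 quintiles −0.12, 0.01 and 0.12, and in the longest quintile (4720 to 123179 nt) 0.24. Of genes at an unadjusted p under 0.05, the shortest quintile held 419 lower and 25 higher, and the longest 33 lower and 410 higher. Relative to the mean of the 6 libraries, the shortest quintile stood at −0.13, −0.01 and −0.12 in H2O2/SB431542 1 to 3, against 0.14, 0.17 and 0.10 in H2O2/saline 1 to 3. The longest quintile stood at 0.09, 0.13 and 0.21 in H2O2/SB431542, against −0.17, −0.10 and −0.08 in H2O2/saline. The 2 groups were thus apart in both quintiles, H2O2/saline 1 included. Controls 1 to 3 stood at 0.14, −0.02 and 0.06 in the shortest quintile and at −0.05, 0.14 and 0.20 in the longest. The trend on length thus also varied among control libraries, which received no inhibitor. Its cause was not tested. Across genes Spearman's rank correlation of length and log2 fold change was 0.327, a description, since genes of a library are not independent.

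With a trend on length taken out of each library, 1153 genes (5.98%) had an unadjusted p under 0.05, 742 lower (3.85%) and 411 higher (2.13%), and 0 were called. The median of the ribosomal protein genes then was −0.11, that of the oxidative phosphorylation list −0.10 and that of the lipid synthesis list 0.13. S100a10, with a transcript of 685 nt, had a log2 fold change of −0.86 in that fit, Rps7 −0.74, Phc3, with 10976 nt, 0.53 and Cyp1b1 1.68. The list medians of macrophage markers and of cell division genes were −0.41 and −1.39, with 4 and 6 genes lower at an unadjusted p under 0.05.

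**Figure D4:**
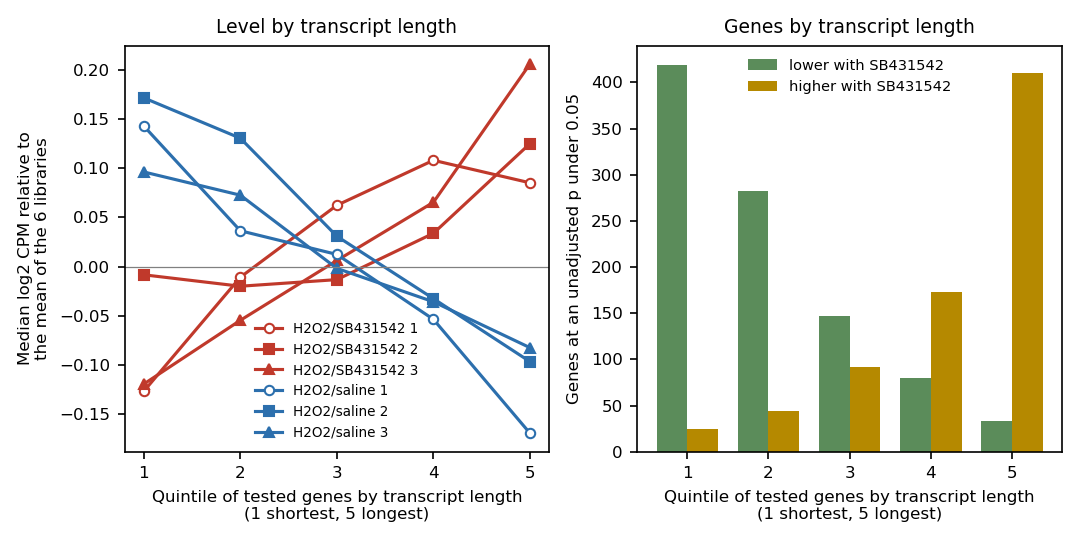
Left, median log2 CPM relative to the mean of the 6 libraries for each quintile of tested genes by transcript length, 1 line per library. Right, number of genes lower and higher with SB431542 at an unadjusted p under 0.05 in each quintile. The lines cross, H2O2/SB431542 lying below H2O2/saline in the shortest quintile and above it in the longest, and 419 lower genes in the shortest quintile stand against 410 higher genes in the longest.

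Without H2O2/saline 1, 113 genes fell and 84 rose between H2O2/saline 2 and 3 and the 3 H2O2/SB431542 libraries. That fit kept H2O2/SB431542 1 and control 1, although libraries of number 1 deviated together. With replicates 2 and 3 only, a setting added after seeing the data, 136 of these 197 genes were called. Described are genes among the 12 in each direction with the largest log2 fold change. Stra6, the receptor through which cells take up retinol, had 0.362, 1.88 and 0.755 CPM in H2O2/SB431542, against 0.925, 46.5 and 31.3 CPM in H2O2/saline, and 1.22, 0.370 and 0.309 CPM in the controls. Leaving out H2O2/saline 1, its log2 fold change was −5.24 ± 0.62 (SE, adjusted p = 0.0103, edgeR). Serpina3n, an inhibitor of serine proteases induced in inflammation, had 62.5, 191 and 114 CPM in H2O2/SB431542, against 56.8, 912 and 833 CPM in H2O2/saline, and 35.9, 45.4 and 45.7 CPM in the controls. Clcf1, a cytokine of the interleukin 6 family, had 4.85, 5.75 and 4.30 CPM in H2O2/SB431542, against 4.10, 30.6 and 24.1 CPM in H2O2/saline. For Stra6, Serpina3n and Clcf1 the H2O2/saline 1 value lay within or below the H2O2/SB431542 range. Ppbp, the platelet chemokine CXCL7, had 0, 1.23 and 1.14 CPM in H2O2/SB431542, against 0.0578, 22.9 and 14.96 CPM in H2O2/saline, and 0 CPM in each control. Hoxb9, a homeobox gene of trunk position, had 0.507, 0.675 and 0.366 CPM in H2O2/SB431542, against 0.983, 6.65 and 6.61 CPM in H2O2/saline, the 1 gene of the 12 with groups apart over all 6 libraries. Gprc5a, an orphan receptor induced by retinoic acid, had 8.26, 32.8 and 31.1 CPM in H2O2/SB431542, against 9.89, 135 and 118 CPM in H2O2/saline. Kif22, a kinesin of dividing cells, had 1.86, 3.80 and 2.24 CPM in H2O2/SB431542, against 1.42, 14.7 and 16.8 CPM in H2O2/saline, and Tspan1, a tetraspanin, had 1.04, 2.75 and 2.01 CPM in H2O2/SB431542, against 1.16, 13.7 and 15.2 CPM in H2O2/saline. Krt13 and Fosl1, given above, were also among the 12.

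Of those that rose, Igfbp2, a binding protein of insulin-like growth factors, had 1782, 863 and 682 CPM in H2O2/SB431542, against 1687, 248 and 324 CPM in H2O2/saline, and 1563, 2128 and 1437 CPM in the controls. Scnn1b, a subunit of the epithelial sodium channel, had 38.1, 22.6 and 31.9 CPM in H2O2/SB431542, against 53.5, 7.50 and 7.95 CPM in H2O2/saline, and 46.5, 26.6 and 26.2 CPM in the controls. In both the H2O2/saline 1 value lay near or above the highest H2O2/SB431542 library. Ppara, the nuclear receptor of fatty acid oxidation, had 8.28, 8.10 and 6.84 CPM in H2O2/SB431542, against 6.79, 2.17 and 1.44 CPM in H2O2/saline, and Flrt3, an adhesion protein, had 5.02, 10.2 and 9.67 CPM in H2O2/SB431542, against 4.97, 2.66 and 1.98 CPM in H2O2/saline. For Ppara and Flrt3 the groups did not overlap with H2O2/saline 1 either, by a small margin. Smoc1, a matrix protein that modulates BMP signals, had 28.1, 26.0 and 23.9 CPM in H2O2/SB431542, against 28.9, 3.78 and 6.32 CPM in H2O2/saline, and Ksr2, a scaffold of MAP kinases, had 27.1, 24.7 and 23.9 CPM in H2O2/SB431542, against 27.0, 6.05 and 8.62 CPM in H2O2/saline. Kcnc4, a potassium channel, had 12.2, 3.95 and 9.83 CPM in H2O2/SB431542, against 12.8, 0.310 and 1.14 CPM in H2O2/saline, and Sult4a1, a sulfotransferase, had 9.90, 1.78 and 3.43 CPM in H2O2/SB431542, against 7.23, 0.414 and 0.594 CPM in H2O2/saline. Ankfn1, Ypel1, Pcdhgb4, whose last exons are shared with its gene cluster, and Slc16a12 complete the 12.

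**Figure D5:**
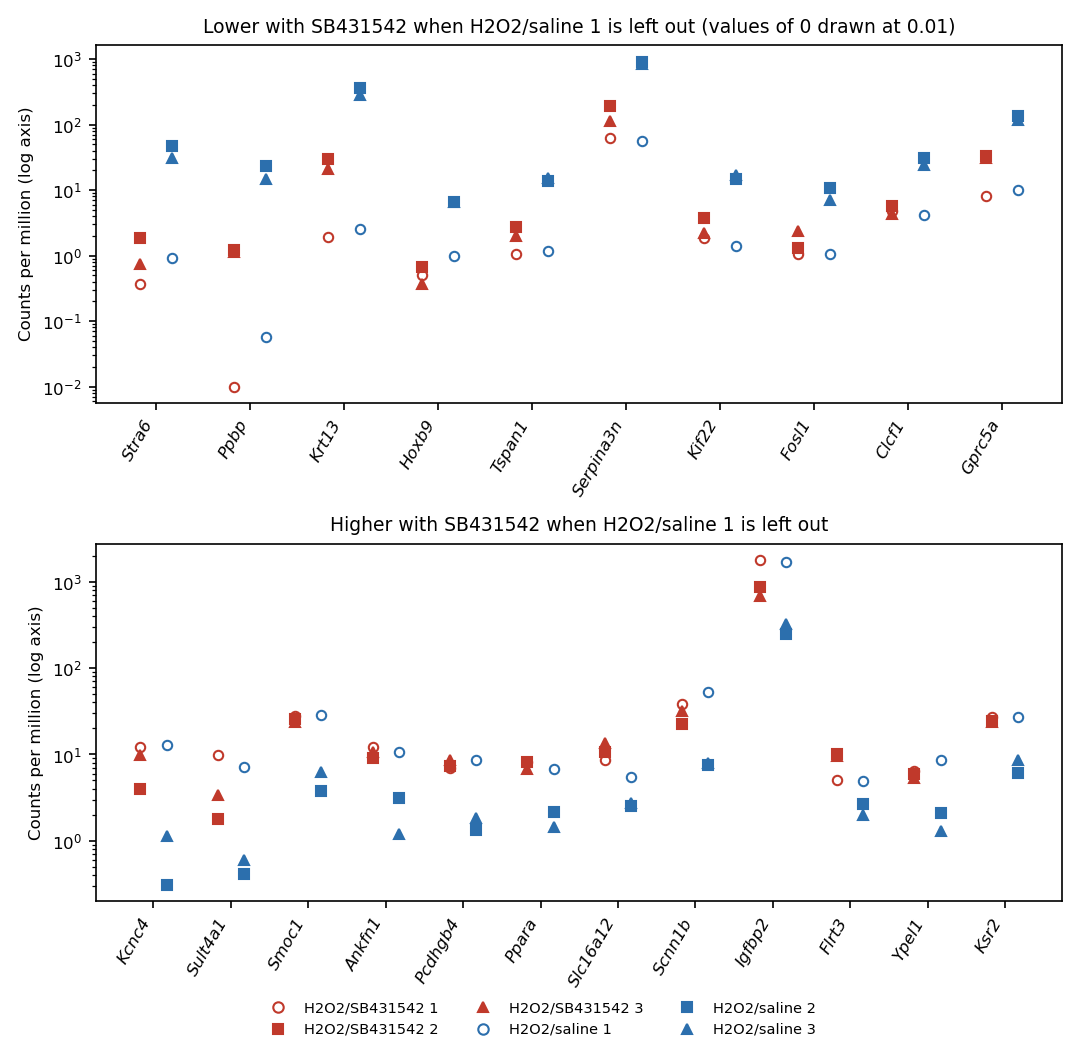
CPM (log axis) in each library for the genes described in the text among those that fell most (top) and rose most (bottom) with SB431542 when H2O2/saline 1 was left out of the test. Its open blue circle is drawn all the same: for Krt13 it stands at 2.57 CPM, against 360 and 288 CPM in H2O2/saline 2 and 3 and 1.93 to 30.0 CPM in H2O2/SB431542.

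Over the 113 genes that fell, H2O2/saline 1 lay above all H2O2/SB431542 libraries in 29, within their range in 50 and below all of them in 34. Over the 84 that rose it lay below all of them in 28, within in 32 and above in 24. It lay within the range of the 3 controls in 49 of the 113 and in 33 of the 84. In each of the 113 and each of the 84 it lay outside H2O2/saline 2 and 3 on the side of H2O2/SB431542. These genes were called only with that library left out, so its position in them follows largely from how they were chosen. The same shares over all tested genes were not taken. With all 6 libraries, 5 of which had chosen these genes, 107 of the 113 and 32 of the 84 had an unadjusted p under 0.05. The median log2 fold change was −1.15 with all libraries for the 113, against −1.49 without H2O2/saline 1, and 0.90 against 1.77 for the 84. With the length trend also taken out 171 genes (0.887%) were called, among them 83 of the 113 and 61 of the 84.

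DESeq2 gave no adjusted p for 3408 genes of low counts. Of the 39 that it called with all libraries, 36 had groups apart, 39 had an unadjusted p under 0.05 in edgeR and 21 were also called by edgeR without H2O2/saline 1. S100a10, Hoxb9, Plac8, Rps7, Ccl9, Ifitm1, Cyp1b1 and AC161763.1 were among the 10 with the lowest adjusted p. DESeq2 gave adjusted p-values of 0.00453 for S100a10 and 0.0206 for Cyp1b1. The lowest belonged to Rsc1a1, which had 0, 0 and 0 CPM in H2O2/SB431542, against 11.9, 10.3 and 0 CPM in H2O2/saline, and 0, 12.6 and 0 CPM in the controls. Its counts came from 1 or 2 libraries of a group, so the groups overlapped at 0, and in the mouse genome it overlaps Ddi2, with which it may share reads.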

How the data were processed

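The 3 H2O2/SB431542, 3 H2O2/saline and 3 control libraries of mouse bladder were analysed. The authors took RNA from one hemisphere of each bladder, selected poly-A RNA, sequenced it as paired reads on an Illumina instrument and processed it with strand NGS against GRCm39. How reads were aligned and counted, and on which annotation, is not named in the sources used here. The deposited table gives for each library the authors' raw expected counts per gene, unscaled, and a normalized column on a log2 scale that the authors centred per gene. The log2 columns were not used, and 0 other columns of samples were left out.

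Expected counts of 53342 genes were rounded to whole numbers, scaled with TMM factors (0.910 to 1.07 in the 6 libraries) and filtered with filterByExpr, which kept 19314 genes. All 9 libraries entered one edgeR 4.0.16 quasi-likelihood fit in R 4.3.3 with a mean for each group, and H2O2/SB431542 minus H2O2/saline was tested, p being adjusted by Benjamini-Hochberg over all tested genes (threshold 0.05). The test was tried on simulated counts first. The SE of a log2 fold change was taken as its size divided by the square root of F. No exact permutation test was made, since 3 libraries on each side allow no p below 0.1. CPM uses the TMM factors. Groups are called apart where all 3 values of one lie above all 3 of the other. Depth was 37756785 to 41055328 counts in the 6 libraries, and 21451 to 27530 genes had a count. At such depth a count of a few per library, well under 1 CPM, bears little weight.

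The 44 gene lists (694 entries, 678 found), the rules and the alternatives were chosen with earlier results of these data known. Named genes are the TGF-β genes, the genes the study measured, up to 6 members of each list with an unadjusted p under 0.05 or groups apart, and markers that define a list. To these come, in each direction, 15 genes of lowest p with groups apart and 12 of largest change among those called without H2O2/saline 1, both with a mean of at least 5 CPM in the higher group, and the 10 genes of lowest adjusted p among those called by DESeq2 1.42.0 and not by edgeR. Symbols starting with Gm and a digit, ENSMUSG or LOC, or ending in Rik, were passed over. Some genes that these rules name are not reported here. Transcript lengths are those of the longest protein-coding transcript of each gene in GENCODE vM21, or of its longest transcript where none was protein-coding. They were found for 19280 of 19314 genes by identifier. Promoters come from RefSeq on GRCm38.p6. Alternatives were DESeq2, limma-voom (limma 3.58.1), other scalings and filters, only the 2 groups, a replicate block and each library left out. Replicates 2 and 3 only and a length trend (loess, span 0.5) taken out of each library were added after seeing the data.

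Labels and methods do not tie libraries of the same number together, but in these data those of number 1 deviated together from their group means. The correlation over genes of H2O2/SB431542 and H2O2/saline was 0.514, 0.201 and 0.129 for numbers 1, 2 and 3, and −0.330 to 0.183 for unlike numbers. For numbers 2 and 3 the unlike pairs were about as high, with 0.183 for H2O2/SB431542 2 and H2O2/saline 3 and 0.121 for H2O2/SB431542 3 and H2O2/saline 2. Whether equal numbers pair the samples was thus not settled. A fit blocked on that number stands beside the one without it.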

Additional observations from a re-analysis of the deposited data

How the results depend on the processing

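All counts here are of genes at an adjusted p under 0.05 for H2O2/SB431542 against H2O2/saline, 0 in the edgeR fit of all libraries. DESeq2 gave 39, no filter on low counts 274, only the 2 groups compared 1, and replicates 2 and 3 only 234, chosen after seeing the data. Leaving out each library in turn gave 0 to 197. With the replicate block the count was 0 in the fit of all 9 libraries (2734 genes at an unadjusted p under 0.05) and 8 with the block and only the 2 groups compared. Without H2O2/saline 1 the count of 197 became 1177 in DESeq2, 354 in limma-voom, 350 where every library had to hold at least 10 counts, and 449 with only the 2 groups compared. The cause of these differences was not tested. With no filter 33427 genes were tested, and genes with counts in 1 or 2 libraries enter. Scaling by library totals alone moved the median log2 fold change of all genes to 0.17, and 81.9% of genes at an unadjusted p under 0.05 were higher there, against 43.7% with TMM factors. The medians of 10 of the 43 lists with tested members, none beyond 0.15 in size, turned their sign with that scaling, and 0 did so with the other scalings tried. Fat cell genes, at a median of −0.97, stood at 4.20 without H2O2/saline 1. The share of higher genes was 53.3% with at least 10 counts in every library, 25.6% without H2O2/SB431542 2 and 58.0% without H2O2/saline 2. Of 2556 fold changes of 122 genes named in the text under an alternative, 26 turned their sign. For Adipoq limma-voom gave 0.86, replicates 2 and 3 only 4.53, and leaving out a library −5.50 to 8.48. Hba-a1 had 0.063 by library totals, 0.17 with the length trend taken out and −0.91 to 0.54 without a library. Tgfbr2 had 7.13e-05 in limma-voom, 0.0055 by upper-quartile scaling, 0.13 by library totals, 0.014 with at least 10 counts in every library, 0.0041 with the replicate block and −0.13 to 0.13 without a library. Col1a1 had −0.0049 with the block and only the 2 groups compared, −0.071 in replicates 2 and 3 only, −0.15 with the length trend taken out and −0.32 to 0.32 without a library. Smad3 had −0.024 with the length trend taken out and −0.11 to 0.47 without a library. Without a library Tgfbr1 ran from −0.13 to 0.43, Scnn1b from −0.016 to 2.04 and Sult4a1 from −0.10 to 3.35.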
